A study of Mus musculus with 4 samples.

Results

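The genes of mitochondrial protein import, mitochondrial dynamics and mitochondrial biogenesis numbered 42 of the 54021 gene symbols in the count table. They were chosen by a rule on names, which took the 26 symbols that start with Tomm or Timm, leaving out pseudogenes and opposite-strand transcripts, and 16 named genes of mitochondrial transcription, its nuclear regulators, fusion, fission and quality control. One of the Timm symbols, Timmdc1, encodes an assembly factor of respiratory complex I and was kept because of its name. Of the 42 genes, 37 had a mean above 10 CPM, read counts scaled to the library size, and were tested with the 11758 genes above that level. A further 3 (Ppargc1a, Ppargc1b and Tfb1m) exceeded a mean of only 1 CPM, and 2 (Tomm20l and Timm8a2) did not.

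Nearly all mitochondrial proteins are made in the cytosol and enter through the TOM complex of the outer membrane. From there small TIM chaperones guide hydrophobic proteins across the intermembrane space, TIM22 inserts carriers into the inner membrane, and TIM23 with its motor moves proteins with a presequence into the matrix. Mitofusins and OPA1 fuse mitochondria, DRP1 divides them, and the coactivator PGC-1α works through the transcription factors NRF1 and ERRα on nuclear genes that include Tfam, the main packaging and transcription factor of mitochondrial DNA. Oocytes are among the cells richest in mitochondria.

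The rOvaries were ovaries rebuilt under the kidney capsule from aggregates of fetal primordial germ cells and gonadal somatic cells that carried an actin-GFP transgene on a C57BL/6 background. The recipients of both groups were ovariectomized G2 Terc-/- C57BL/6 females, telomerase-deficient mice used as a model of premature ageing, and were 2 to 3 months old. The INK128 group received INK128, an inhibitor of the mTOR kinase, in drinking water at 0.75 μM per g by the labels, and the control group received none. PolyA RNA was collected 1 month after transplantation, and the comparison asked how the treated rOvaries differed from the untreated ones, with 2 libraries a group (INK128 replicates 1 and 2, control replicates 1 and 3). The grafts can hold host kidney, vessel and immune cells beside donor cells, and nothing in the labels says that replicates came from separate mice, so p-values measure only the spread between these libraries.

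The libraries held between 19130209 and 23029089 counts, so that a floor of 3 counts corresponded to 0.126 to 0.162 CPM, covering counting error only. Granulosa cell markers were present in every library, with summed levels of 5894 and 7719 CPM with INK128 and 2982 and 4692 CPM in controls. Most of this sum was Inha, at 4084 and 5920 against 1672 and 2845 CPM. Of the 7 granulosa markers 3 were higher in both INK128 libraries than in both controls and 0 lower. Amh, at 131 and 80.5 against 433 and 5.08 CPM, was among those that overlapped. Both controls stood apart from the rest. Control replicate 1 held 1021 counts of 4 Y-linked genes, against 0 to 2 in the other libraries. Control replicate 3 had a summed level of 9 oocyte markers of 23.5 CPM, against 697 CPM in control replicate 1 and 719 and 980 CPM with INK128. Of these oocyte markers 7 were higher in both INK128 libraries than in both controls. Of 12 kidney markers 10 were lower, with sums of 57.3 and 134 CPM with INK128 and 514 and 1205 CPM in controls, and 1 of them, Slc12a1, had no count in INK128 replicate 2. Of 9 immune markers 7 were lower (sums of 189 and 190 against 314 and 496 CPM), and of 7 muscle markers 5 were higher (4744 and 4778 against 657 and 1383 CPM). The sum of 6 steroidogenic markers lay at 3797 and 5012 CPM with INK128, between the controls at 771 and 10549 CPM. The part of these differences in the results on mitochondrial genes was not tested.

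Import genes were mostly higher in the INK128-treated rOvaries, while the fusion genes Opa1 and Mfn2, the fission gene Dnm1l and the coactivator gene Ppargc1a were lower in both treated libraries. Of the 37 tested genes, 2 were called higher with INK128, Timm13 and Timm10b, and 0 lower, where a call needed a fold change over 1.5 with an adjusted p under 0.05 in edgeR's quasi-likelihood test. Over all tested genes 3.18% were called higher and 3.19% lower, so this count by itself was near the background. The levels were shifted, in part along with transcript length. The median log2 fold change was 0.48 (range −0.79 to 1.39) against −0.03 over all tested genes, and 28 of 37 values (75.7%) were positive against 48.6%. Both INK128 libraries lay above both controls for 25 of the 37 genes, against 35.2% of all tested genes, and below both for 5, against 33.3%. The 24 tested Tomm and Timm genes carried most of this, with a median of 0.68 and treated libraries above the controls for 20 and below for 1. For the other 13 genes the median was 0.16, with treated libraries above for 5 and below for 4. With offsets for transcript length the median over the 37 genes was 0.11 and over the Tomm and Timm genes 0.28, and neither Timm13 nor Timm10b was called. At an unadjusted p below 0.05 and the same fold limit, 15 of 37 were higher (16.2% over all tested genes) and 2 lower (17.3%). DESeq2, with the limits of the main test, called 11 higher (13.6%) and 0 lower (15.1%). In bulk tissue, fewer cells of a type and less RNA per cell cannot be told apart.

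The number of calls moved with single libraries. Without control replicate 1, 15 of the 37 genes were called higher and 2 lower, where 22.7% and 23.2% of all tested genes were, and without control replicate 3 the counts were 16 and 2, against 21.2% and 21.4%. Without either INK128 library 0 were called in either direction, as for all tested genes (0%), and 6 (without replicate 1) or 3 (without replicate 2) were higher at an unadjusted p below 0.05. In these edgeR fits the lone library of a group is assumed to vary like the pair of the other group. Between replicates, 2 of the 37 genes differed more than 2-fold in controls and 0 did with INK128, against 13.8% and 1% of all tested genes.

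**Figure D1:**
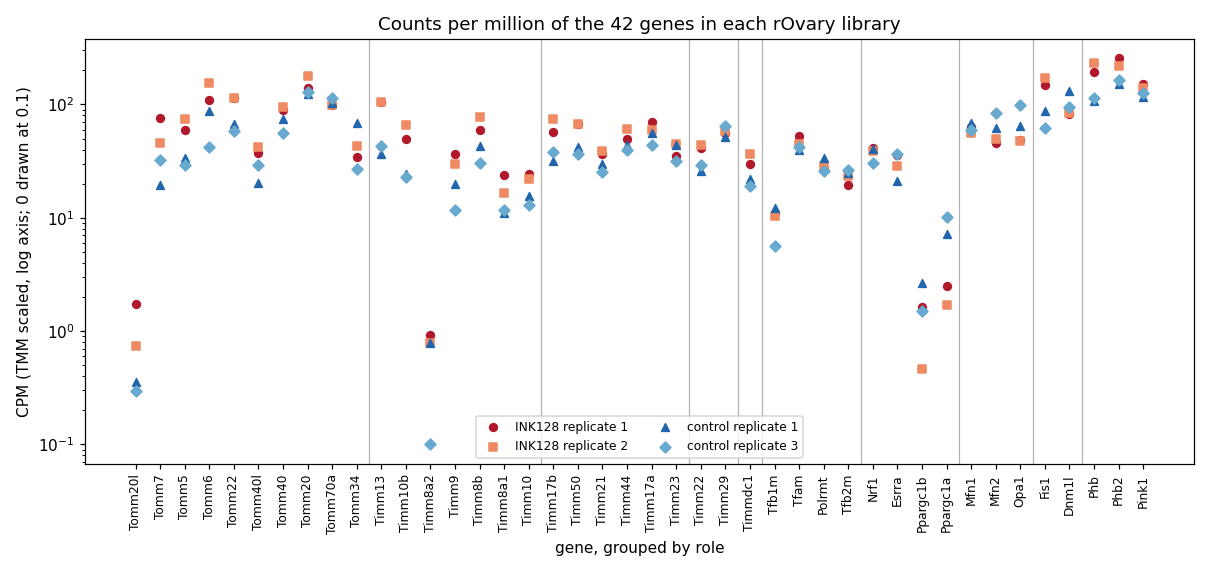
TMM-scaled CPM (log axis) of the 42 genes in each of the 4 libraries, grouped by role with vertical lines between groups; circles and squares are INK128 replicates 1 and 2, triangles and diamonds control replicates 1 and 3, and a value of 0 is drawn at 0.1. Most translocase genes have both INK128 points above both control points, and Ppargc1a and Opa1 have them below.

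The small TIM chaperones, which hand membrane proteins across the intermembrane space, had the highest median of the role groups with more than 1 tested gene, a log2 fold change of 0.98 over 6 tested genes. Both INK128 libraries lay above both controls for all 6 (35.2% over all tested genes), 2 were called by edgeR (3.18%) and 4 by DESeq2 (13.6%). Most of these transcripts are short, and of all 885 tested genes with transcripts under 1000 bases 688 also lay above both controls and 484 were called higher by DESeq2. With offsets for transcript length, described further on, the median was 0.30, below the 0.35 of TIM23 and its motor, and Timm10 and Timm8b turned to −0.29 and −0.20. Timm13 (ENSMUSG00000020219.7, chr10:80899450-80900969 on the minus strand of mm10) partners TIMM8 in this chaperone system. It was measured at 106 and 106 CPM in INK128 replicates 1 and 2 and at 36.8 and 43.2 CPM in control replicates 1 and 3. Both treated libraries were far above both controls, and the log2 fold change of 1.39 (SE 0.18) had an adjusted p of 0.0464 in edgeR. This 2.62-fold difference was the largest of the 37, but the value was 0.72 with exon length and 0.33 with transcript length offsets (adjusted p = 0.12 and 0.363 in edgeR), and neither was called. The 250 bases before its RefSeq start site (chr10:80900970-80901219, GRCm38, read on the minus strand) are shown because they hold a match to the NRF1 motif GCGCANGCG, in capitals, which here lies on the other strand.
Timm13 promoter: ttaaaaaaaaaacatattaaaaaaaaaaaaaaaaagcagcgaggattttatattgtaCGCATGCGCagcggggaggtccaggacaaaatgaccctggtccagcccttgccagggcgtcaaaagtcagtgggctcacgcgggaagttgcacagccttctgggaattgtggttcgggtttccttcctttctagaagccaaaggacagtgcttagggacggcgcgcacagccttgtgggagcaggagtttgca

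Timm10b (ENSMUSG00000089847.8, chr7:105640056-105643637, plus strand), a peripheral subunit that docks the chaperones at TIM22, was measured at 50.0 and 66.5 CPM with INK128 and at 24.4 and 23.1 CPM in controls. The groups did not overlap, and the log2 fold change was 1.28 (SE 0.22, adjusted p = 0.0487 in edgeR). It was 0.33 with transcript length offsets (adjusted p = 0.367), and the call was also lost with limma voom and among genes with a mean CPM above 1. Of its exon bases 10.5% are shared with the same-strand gene model Gm45799, counted 869, 1257, 478 and 446 times in INK128 replicates 1 and 2 and control replicates 1 and 3, so reads may have been counted for either. Its partner Timm10, a core chaperone subunit, stood at 24.2 and 22.1 CPM against 15.6 and 13.0 CPM. Timm9, which forms the hexamer with Timm10, stood at 36.9 and 29.6 CPM against 19.7 and 11.6 CPM. Their log2 fold changes of 0.68 and 1.07 had adjusted p-values of 0.127 and 0.102 in edgeR. Timm8b and Timm8a1, the TIMM8 forms, were measured at 59.8 and 78.2 against 43.0 and 30.7 CPM and at 23.8 and 16.5 against 11 and 11.6 CPM. For these 4 genes too the treated libraries lay above the controls, and the log2 fold changes of 0.89 for Timm8b and 0.82 for Timm8a1 missed the adjusted threshold (0.0897 and 0.13, edgeR). Timm8a2 was at the limit of detection, with 17 and 17 counts in the treated libraries, 18 in control replicate 1 and 0 in control replicate 3, which allows up to 0.126 CPM there.

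For the Tomm genes, which encode the TOM complex, the entry gate of the outer membrane, and the cytosolic cochaperone Tomm34, the median log2 fold change was 0.67 over 9 tested genes, and 0.22 with transcript length offsets, under which Tomm5, Tomm22 and Tomm6 had 0.13, 0.22 and 0.09. Treated libraries lay above the controls for 7 of them (35.2% over all tested genes) and below for 1 (33.3%), and 3 were higher with an unadjusted p under 0.05 (16.2%). None was called by edgeR, while DESeq2 called 3 (Tomm5, Tomm7 and Tomm22), against 13.6%. Tomm7, a small subunit that tunes the assembly of the complex, had the largest value, with 76.7 and 46.0 CPM against 19.3 and 32.1 CPM. The groups did not overlap but both pairs of replicates were wide apart, and the log2 fold change of 1.24 had an SE of 0.38, and its adjusted p was 0.0987 in edgeR. Tomm5, another small subunit, was tighter, at 60.1 and 75.1 CPM against 33.8 and 29.5 CPM, with 1.08 as its log2 fold change (SE 0.21, edgeR adjusted p = 0.0516). Tomm22, the central receptor and organizer of the complex, was measured at 113 and 113 CPM against 67.6 and 58.9 CPM, with 0.82 as its log2 fold change (SE 0.17, edgeR adjusted p = 0.0543). Both lay just outside the threshold. The channel Tomm40 stood at 88.8 and 94.0 against 73.7 and 55.8 CPM and its paralogue Tomm40l at 37 and 42.5 against 20.4 and 29.0 CPM. These correspond to log2 fold changes of 0.48 and 0.67 (adjusted p = 0.167 and 0.139, edgeR). Of the exon bases of Tomm40l 64.3% lie opposite Nr1i3 on the other strand, and whether the counting used strand was not given in the sources used here. Its 687, 919, 464 and 691 counts in INK128 replicates 1 and 2 and control replicates 1 and 3 ran beside 600, 820, 375 and 529 counts of Nr1i3, so its level is uncertain. Tomm20, the presequence receptor, was among the more abundant of the genes at 140 and 177 CPM with INK128, both above the control mean of 126 ± 2.88 CPM (SD, n = 2). In edgeR the difference was 0.32 on the log2 scale (adjusted p = 0.298). Its paralogue Tomm20l stayed under a mean of 1 CPM, with 32 and 16 counts in treated and 8 and 7 counts in control libraries.

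Tomm6, a small subunit, was measured at 109 and 156 CPM against 87.2 and 42.1 CPM (log2 fold change 1.02, adjusted p = 0.153, edgeR). It shares 76.0% of its exon bases with the same-strand gene model Gm21981 and 19.4% with the opposite-strand Tomm6os, and its 2025, 3377, 1979 and 1002 counts nearly match the 2032, 3419, 1996 and 1079 counts of Gm21981, so its level is uncertain. Tomm70a, the receptor for carrier proteins, was 98.9 and 99.6 CPM with INK128 and 104 and 115 CPM in controls. It was the only tested Tomm gene with both treated libraries below both controls, and its log2 fold change was −0.16 (edgeR adjusted p = 0.503). Tomm34 overlapped between the groups at 34.2 and 42.6 CPM against 68.6 and 26.8 CPM, and its controls differed more than those of any other of the 37 genes. The log2 fold change of −0.33 turned to 0.51 without control replicate 1 and was −0.85 without control replicate 3, where the gene was called lower.

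For TIM23 and its import motor, the route to the matrix, the median was 0.42 over 6 tested genes, 5 of them with treated libraries above the controls (35.2% over all tested genes). Timm17b, a channel subunit, was measured at 57.4 and 75.1 CPM against 31.7 and 38.1 CPM. Its log2 fold change was 0.91 (SE 0.23), with adjusted p-values of 0.069 in edgeR and 0.0128 in DESeq2. Timm17a, its paralogue, stood at 69.7 and 59.2 CPM against 55.5 and 44.3 CPM, for which the log2 fold change was smaller, at 0.36 (adjusted p = 0.274, edgeR). Timm50, the receptor that takes over presequences from TOM, lay at 67.1 and 66.7 CPM against 41.8 and 36.4 CPM, with 0.76 as its log2 fold change (SE 0.18, edgeR adjusted p = 0.0615). Timm21, which links TIM23 to the respiratory chain, and Timm44, which anchors the motor, had log2 fold changes of 0.45 and 0.39. The exception was Timm23 itself, the channel subunit, with 34.8 and 44.4 CPM against 43.6 and 32.0 CPM, overlapping groups and a log2 fold change of 0.06. In the TIM22 route, the channel gene Timm22 stood at 41.4 and 43.8 CPM against 26 and 29.1 CPM (log2 fold change 0.62, adjusted p = 0.0989, edgeR). Timm29, a TIM22 subunit, stood at 55.5 and 58.8 CPM between the controls at 51.9 and 64.9 CPM (log2 fold change −0.04). Timmdc1 was measured at 29.7 and 36.2 CPM against 22 and 19 CPM (log2 fold change 0.67, adjusted p = 0.115, edgeR).

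**Figure D2:**
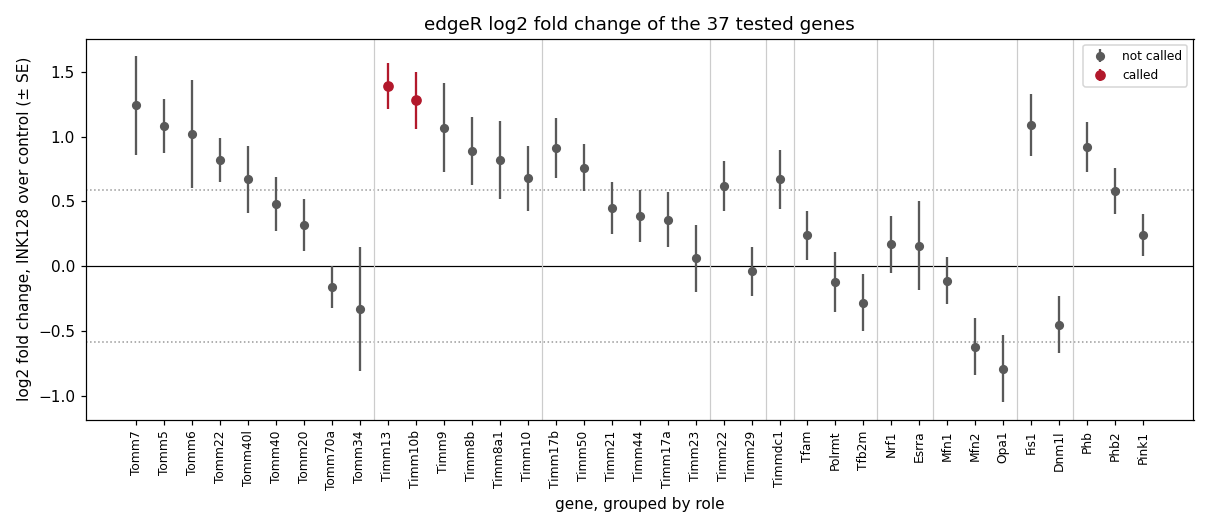
edgeR log2 fold change (INK128 over control) with its standard error for the 37 tested genes, grouped by role; red points are the 2 called genes, and dotted lines mark a fold change of 1.5 in either direction. The small TIM chaperones lie from 0.68 to 1.39, and the 3 fusion genes from −0.79 to −0.11.

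Fusion and fission genes did not share a direction. Opa1 (ENSMUSG00000038084.16, chr16:29579334-29654884, plus strand), the dynamin-like GTPase that fuses inner membranes, had the lowest log2 fold change of the 37 genes. It was measured at 48.6 and 47.4 CPM with INK128 and at 64.4 and 99.5 CPM in controls, a log2 fold change of −0.79 (SE 0.26, unadjusted p = 0.0331 and adjusted p = 0.111 in edgeR). Mfn2, a mitofusin of the outer membrane, was measured at 46.0 and 50.0 CPM against 62.1 and 84.5 CPM (log2 fold change −0.62, SE 0.22, adjusted p = 0.122, edgeR). In both genes the treated libraries were close together and below the controls, and control replicate 3, the library with the most kidney marker counts, was the highest. Without it the log2 fold changes shrank to −0.44 for Opa1 and −0.38 for Mfn2, and without control replicate 1 they were −1.07 and −0.83, both called. Mfn1, the other mitofusin, overlapped between the groups at 63.8 and 55.5 CPM against 68.1 and 59.8 CPM (log2 fold change −0.11). Fis1 (chr5:136953275-136966234, plus strand), an outer membrane protein of the fission machinery, was measured at 148 and 171 CPM with INK128 and 87.0 and 61.5 CPM in controls. Its treated libraries were well above the controls, and its log2 fold change of 1.09 (SE 0.24) had an adjusted p of 0.0586 in edgeR and 0.0015 in DESeq2. The value was 0.51 with exon length and 0.24 with transcript length offsets. Dnm1l, which encodes the fission GTPase DRP1, was measured at 82.2 and 84.4 CPM against 131 and 94.3 CPM (log2 fold change −0.45, SE 0.22, adjusted p = 0.209, edgeR), with the treated libraries below both controls. Its value was −0.19 without control replicate 1 and −0.67 without control replicate 3, where it was called.

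No gene of the transcription machinery of mitochondrial DNA was called in edgeR with every library kept. Tfam stood at 53.0 and 44.7 CPM with INK128 and 39.8 and 42.4 CPM in controls. The groups did not overlap, but the log2 fold change was only 0.24 (SE 0.19, adjusted p = 0.401, edgeR). With transcript length offsets Tfam had −0.53 (adjusted p = 0.224, edgeR). Polrmt, the mitochondrial RNA polymerase, stood at 26.8 and 28.8 CPM against 33.9 and 25.9 CPM, and Tfb2m, its initiation factor, at 19.4 and 23.2 CPM against 24.7 and 26.5 CPM. Their log2 fold changes were −0.12 and −0.28 (adjusted p = 0.734 and 0.404, edgeR). With exon length offsets Tfb2m had −0.59 (unadjusted p = 0.0493 and adjusted p = 0.187, edgeR). Tfb1m, a ribosomal RNA methyltransferase of mitochondria, was tested among the 17631 genes with a mean above 1 CPM, with 11.1 and 10.4 CPM against 12.3 and 5.67 CPM and 0.30 as its log2 fold change (edgeR adjusted p = 0.667).

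Among the nuclear regulators, Ppargc1a (chr5:51454250-51567726, minus strand), the gene of PGC-1α, was low in all libraries and lower still with INK128, at 2.48 and 1.71 CPM (46 and 37 counts) against 7.18 and 10.2 CPM (163 and 244 counts) in controls. The treated libraries lay far below the controls, and in the fit of genes above a mean of 1 CPM the log2 fold change of −2.01 (SE 0.44) had an edgeR p of 0.007, or 0.0669 once adjusted, and a DESeq2 adjusted p of 0.00481. Among all genes with at least 1 count the edgeR adjusted p was 0.0295. With exon length offsets, above a mean of 1 CPM, the value was −1.80 (adjusted p = 0.0955, edgeR). No fit with transcript length offsets was run at that filter, so Ppargc1a, Ppargc1b and Tfb1m have no such value. The median transcript of Ppargc1a is long, at 4609 bases. Like Ppargc1a, the kidney and immune marker sums were higher in both controls and highest in control replicate 3. Their part in the difference of Ppargc1a was not tested. Ppargc1b, the related coactivator, overlapped between the groups at 1.62 and 0.462 CPM against 2.64 and 1.51 CPM (log2 fold change −0.96, SE 0.82, adjusted p = 0.447, edgeR). Their partner factors were nearly level in the main fit. Nrf1 stood at 41.2 and 38.5 CPM against 40.1 and 30.3 CPM (log2 fold change 0.17). Esrra, which encodes ERRα, stood at 35.7 and 28.9 CPM against 20.9 and 36.4 CPM (log2 fold change 0.16, or −0.18 to 0.62 with 1 library left out). The groups overlapped in both, and the adjusted p-values were 0.614 and 0.745 in edgeR. With exon length offsets Nrf1 had 0.62 (adjusted p = 0.2, edgeR) and Esrra 0.14. With transcript length offsets they had −0.04 and 0.01.

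The prohibitins, which form ring-shaped scaffolds in the inner membrane, were among the most abundant of the 42 genes. Phb was measured at 193 and 233 CPM with INK128 and 108 and 115 CPM in controls, with the groups well apart and a log2 fold change of 0.92 (SE 0.19, adjusted p = 0.0536 in edgeR and 0.000447 in DESeq2). Phb2 was measured at 256 and 220 CPM against 151 and 165 CPM, with 0.58 as its log2 fold change (SE 0.18, edgeR adjusted p = 0.102). Pink1, the kinase that marks damaged mitochondria for removal, stood at 150 and 139 CPM against 117 and 125 CPM (log2 fold change 0.24, adjusted p = 0.334, edgeR). All 3 had treated libraries above the controls, against 35.2% of all tested genes. With transcript length offsets Phb had 0.60, while Phb2 fell to 0.05 and Pink1 turned to −0.11. Per kilobase of transcript, Timm13 had a mean level of 195 CPM with INK128 and 73.7 CPM in controls, Fis1 203 and 94.5 CPM, Phb2 180 and 120 CPM, and Opa1 10.1 and 17.3 CPM.

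The differences followed transcript length. Across the 37 genes the log2 fold change had a Pearson r of −0.72 and a Spearman rho of −0.74 with log2 of the median length of a gene's protein-coding transcripts. The same correlation over the 10985 tested genes with such a length was −0.42 (rho −0.56). These are correlations across genes of the same 4 libraries, and genes are not independent replicates. The 10 tested genes with transcripts under 1000 bases, which include Timm13, Timm10b, Fis1 and Tomm5, had a median log2 fold change of 1.05, while all 885 tested genes of that length had 0.89. Between 1000 and 2000 bases the median was 0.67 for 11 of the genes and 0.44 for all 2531, and over 2000 bases it was −0.08 for 16 and −0.27 for all 7569. These medians of the mitochondrial genes thus lay above those of all genes within each length range, as a description without a test. The ranges do not level length. The median transcript was 671 bases against 776 for all genes in the shortest range and 2991 against 3536 in the longest. It was 1573 against 1546 in the middle range.

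Offsets that level the relation to transcript length in each library, added after the data were seen, lowered the median of the 37 genes to 0.11, with −0.01 over all tested genes. In that edgeR fit no gene of the whole table was called. At an unadjusted p below 0.05 and a fold above 1.5, 4 of the 37 were higher, against 9.02% of all tested genes, and 1 lower, against 11.7%. The 4 were Timm17a with a log2 fold change of 1.02 (unadjusted p = 0.00972), Timm17b with 0.81 (0.019), Phb with 0.60 (0.0246) and Tomm40l, of uncertain level, with 0.69 (0.0473), and the 1 was Timm23 with −0.80 (0.0187, adjusted p = 0.143). Timm13 and Timm10b both had 0.33 in this fit (adjusted p = 0.363 and 0.367) and Fis1 0.24. Opa1 and Mfn2 remained negative at −0.37 and −0.30. Tfam, whose transcript is short at 899 bases, turned from 0.24 to −0.53.

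**Figure D3:**
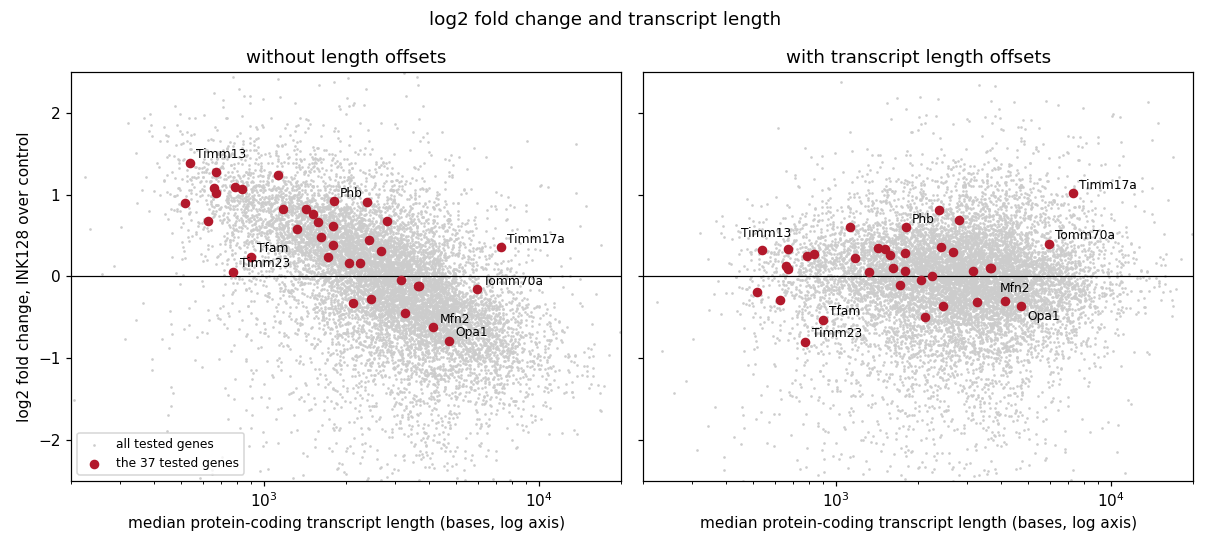
edgeR log2 fold change (INK128 over control) against the median protein-coding transcript length in bases (log axis), for the 10985 tested genes with a length (grey) and the 37 genes (red), without length offsets on the left and with transcript length offsets on the right. The red points fall from Timm13 at 1.39 to Opa1 at −0.79 on the left and run without that slope on the right, from Timm17a at 1.02 to Timm23 at −0.80; 248 grey genes on the left and 253 on the right lie beyond the vertical axis limit of 2.5.

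Ratios of gene pairs within a library hardly depend on how the libraries are scaled. The log2 ratio of Dnm1l to Fis1, the fission GTPase to its outer membrane partner, was −0.84 and −1.02 in INK128 replicates 1 and 2 and 0.59 and 0.61 in control replicates 1 and 3. The groups did not overlap and differed by −1.53. Per kilobase of transcript the mean level of Dnm1l was below that of Fis1 in both groups (25.5 and 203 CPM with INK128, 34.6 and 94.5 CPM in controls), so the sign of these CPM ratios has no meaning of its own. In an exact permutation test of 2 against 2 libraries the smallest two-sided p is 0.333, which this pair had, so no ratio could pass a threshold, and after adjustment over the 10 pairs none could either. The transcripts of the pair differ 4.15-fold in length, and with transcript length offsets the fitted log2 fold changes, −0.32 for Dnm1l and 0.24 for Fis1, differed by only −0.56. Timm10 to Timm10b, of nearly equal length (0.934), was −1.03 and −1.57 against −0.63 and −0.80, without overlap and with a difference of −0.58. Mfn1 to Mfn2, also similar in length (0.887), was 0.47 and 0.15 against 0.13 and −0.49, a difference of 0.49, again without overlap.

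Of the other pairs, 3 did not overlap between the groups. These were Phb to Phb2 with a difference of 0.34, Ppargc1a to Ppargc1b with −1.01 and Tomm20 to Tomm20l with −0.70, the last 2 resting on low counts. The other 4 overlapped, with differences of −0.54 for Timm17a to Timm17b, 0.60 for Tfb1m to Tfb2m, −0.18 for Tomm40 to Tomm40l and −0.12 for Timm8a1 to Timm8b (p of 0.667, 0.667, 1 and 1 in the exact permutation test).

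**Figure D4:**
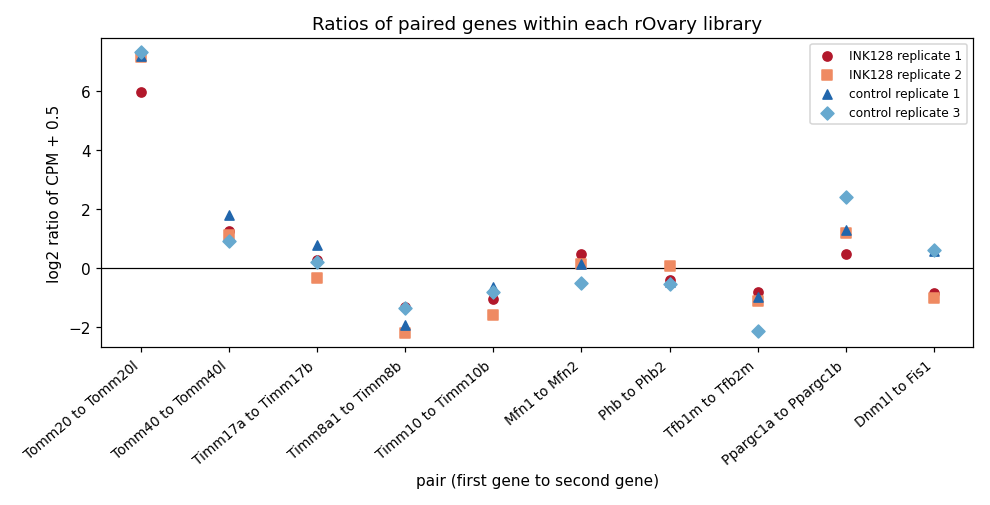
log2 ratio of CPM + 0.5 of the first to the second gene of each of 10 pairs, in each library; circles and squares are INK128 replicates 1 and 2, triangles and diamonds control replicates 1 and 3. For Dnm1l to Fis1 both INK128 libraries, at −0.84 and −1.02, lie below both controls, at 0.59 and 0.61; CPM are not divided by length here, so the line at 0 does not mark equal levels.

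The shift was shared with other nuclear genes of mitochondria. The 78 mitochondrial ribosomal proteins had a median log2 fold change of 0.76, with 10 called higher (3.18% over all tested genes) and 0 lower (3.19%). The 85 tested subunits of oxidative phosphorylation had 0.98, with 21 higher and 0 lower. These subunits had a median transcript of 751 bases. Of all 885 tested genes under 1000 bases 186 were called higher, with a median log2 fold change of 0.89. With transcript length offsets the medians of the ribosomal proteins and of the subunits were 0.20 and 0.12, so the 3 lists lay closer together. A list of other import, dynamics and biogenesis genes held 88 genes in the table, of which 76 were tested. Its median was 0.19, with 3 called higher and 0 lower in edgeR, a count near the 3.18% and 3.19% of all tested genes. By unadjusted p (under 0.05), 17 were higher (16.2% over all tested genes) and 5 lower (17.3%), and DESeq2 called 16 higher (13.6%) and 3 lower (15.1%). The 3 called by edgeR were Romo1, a small inner membrane protein tied to TIM23, the matrix protease gene Clpp and the rhomboid protease gene Parl. Romo1 was measured at 89.9 and 89.0 CPM with INK128 and 34.3 and 38.7 CPM in controls (log2 fold change 1.28). Clpp was measured at 72.4 and 81.4 CPM against 36.3 and 34.9 CPM (1.10), and Parl, which processes PINK1, at 98.3 and 94.8 CPM against 45.8 and 44.7 CPM (1.08). All 3 had an adjusted p of 0.0464 in edgeR and treated libraries above the controls, and with transcript length offsets their values were 0.13, 0.38 and 0.57, none of them called. The most negative values belonged to Gabpb2, a subunit of the transcription factor GABP, with −1.01 (adjusted p = 0.0791), and to Trak1 and Trak2, adaptors for mitochondrial transport, with −0.99 (0.105) and −0.90 (0.125) in edgeR. With transcript length offsets these were −0.24, −0.70 and −0.53.

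Promoter windows, from 250 bases before to 50 after the RefSeq start site, were in the sequence table for 38 of the 42 genes, those of Ppargc1b, Timm21, Tomm40l and Tomm7 not being among them. On either strand, 9 of the 38 (23.7%) held the NRF1 motif GCGCANGCG, against 15.8% of 8816 tested genes and 7.03% of all 27025 genes of the table. The motif CCGGAAGT of GABP and other ETS factors was in 11 (28.9%), against 9.48% and 4.31%. The motif AAGGTCA of ERR factors was in 3 (7.89%, against 3.72% and 5.38%) and AAGATGGC of YY1 in 1 (2.63%, against 5.56% and 3.19%). No match of one motif overlapped a match of another in these genes. The median log2 fold change was 0.24 for genes with the NRF1 motif and 0.58 for those without, and 0.41 with and 0.44 without the GABP motif, so the genes with either motif were not the more positive ones. A match in these letters is not a binding site, and binding was not measured. The lines below give, from RefSeq on GRCm38, the match in capitals with its flanks for genes on which the results turn, each written in the direction of the motif and with the strand it is read on.
Timm13, NRF1 match at chr10:80901144-80901172, plus strand: cctccccgctGCGCATGCGtacaatataa
Opa1, NRF1 match at chr16:29579265-29579293, plus strand: gtggctccccGCGCATGCGcatgtcatcc
Phb, NRF1 match at chr11:95666977-95667005, plus strand: gagctgcctgGCGCACGCGcagtatccgg
Esrra, NRF1 match at chr19:6921931-6921959, minus strand: acaggaggccGCGCACGCGtgtgtatcga
Timm10b, GABP match at chr7:105640470-105640494, minus strand: agtcgccCCGGAAGTaaactctcac
Fis1, GABP match at chr5:136953247-136953274, plus strand: gaggcaccacCCGGAAGTtcaggcttcc
Tfam, GABP match at chr10:71238074-71238101, minus strand: ctgccgcggaCCGGAAGTccgggcttcc
Timm23, GABP match at chr14:32201922-32201949, plus strand: tgtgtgcggcCCGGAAGTgggaagcgcg
The NRF1 match thus occurs both in Timm13, called higher, and in Opa1, the lowest of the 37 genes, and the GABP match both in Timm10b and Fis1, with values above 1, and in Tfam and Timm23, with values of 0.24 and 0.06.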

How the data were processed

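RNA-seq counts of 2 INK128-treated and 2 control rOvaries were analysed, with groups and replicate numbers taken from the sample titles. According to the study's methods and the submitters' processing notes, reads were trimmed with Trimmomatic, aligned to mm10 with HISAT2 and assigned to genes with featureCounts. The deposited values are raw counts by gene symbol, neither normalized nor pooled, and the strand and overlap settings of the counting are not given in the sources used here. Counts were scaled to CPM with TMM factors and tested with the quasi-likelihood F-test of edgeR 4.0.16 (R 4.3.3) over 11758 genes with a mean CPM above 10, with Benjamini-Hochberg adjustment (common dispersion 0.0949). Members with a mean CPM above 1 were tested among 17631 genes. Standard errors were derived from the fold change and its F statistic. Pair ratios used a pseudocount of 0.5 CPM. Positions and lengths came from GENCODE M21 (mm10), in which all 42 genes were found, and promoters from RefSeq. Alternatives were DESeq2 1.42.0, limma 3.58.1 (voom), other normalizations, filters and thresholds, length and GC offsets, and leaving out each library. The fits were tested on simulated data with large planted changes and a lower dispersion than in these libraries. Offsets there used exon length, so the fit with transcript length offsets was not covered.

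The genes and all lists were chosen with earlier results of these data known. Every one of the 42 genes was to be named with its log2 fold change, and values per library were to be given for called genes, the extremes of each role group, both genes of each pair and the 16 genes other than Tomm and Timm. Of the other pathway genes, called ones and otherwise the 3 largest in each direction were named. The labels give a dose of 0.75 μM per g, and the study's methods state it in another unit.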

Additional observations from a re-analysis of the deposited data

How the results depend on the processing

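The number of import, dynamics and biogenesis genes called higher, 2 in the main test, was 11 in DESeq2 (13.6% over all genes of that fit), 1 with library totals (2.49%), 6 with CPM above 10 in all libraries (8%), 9 with at least 1 count (3.66%), 11 at an adjusted p below 0.1 (13.1%) and 15 at an unadjusted p below 0.05 (16.2%). It was 0, as for all genes (0%), with limma voom, a mean CPM above 1, exon length, GC content or transcript length offsets, where 16, 18, 6, 13 and 4 of the 37 were higher at an unadjusted p below 0.05. Those called lower, 0 in the main test, were 1 with at least 1 count, namely Ppargc1a, and 2 at an unadjusted p. Leaving out 1 library gave 0 to 16 higher and 0 to 2 lower. For the other pathway genes, 3 higher and 0 lower in the main test became 16 and 3 in DESeq2, 9 and 1 with CPM above 10 in all libraries, 10 and 2 (Gabpb2 and the low-count gene Ppara) with at least 1 count, 14 and 2 at an adjusted p below 0.1 and 17 and 5 at an unadjusted p. There were 0 higher with voom, a mean CPM above 1 and the exon length, GC and transcript length offsets (17, 18, 10, 16 and 7 at an unadjusted p), and 0 to 21 higher and 0 to 5 lower with 1 library left out.

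The median of 0.48 was 0.35 with library totals (all tested genes −0.16), 0.26 with exon length and 0.11 with transcript length offsets. Over 616 log2 fold changes of single genes under an alternative, 512 kept direction and side of the threshold, 57 passed it newly, 15 no longer passed it and 32 changed sign, and 27 of 40 genes never changed sign. With transcript length offsets the sign turned for Mfn1 (0.11), Nrf1 (−0.04), Pink1 (−0.11), Polrmt (0.10), Tfam (−0.53), Timm10 (−0.29), Timm23 (−0.80), Timm29 (0.07), Timm8b (−0.20) and Tomm70a (0.40). With exon length offsets it turned for Mfn1 (0.07), Pink1 (−0.10), Timm10 (−0.15), Timm23 (−0.51), Timm8b (−0.02) and Tomm70a (0.29), and with GC offsets for Esrra (−0.13), Mfn1 (0.03), Pink1 (−0.02) and Tomm70a (0.03). Timm23 was −0.08 with library totals, and Timm29 0.02 with upper quartile factors and 0.01 with a mean CPM above 1. With 1 library left out, Esrra ranged from −0.18 to 0.62, Nrf1 from −0.02 to 0.38, Polrmt from −0.30 to 0.09, Tfb1m from −0.16 to 0.96, Timm23 from −0.15 to 0.30, Timm29 from −0.20 to 0.13 and Tomm34 from −0.85 to 0.51. Likewise the difference in the ratio of Tomm40 to Tomm40l ranged from −0.63 to 0.26 and in that of Timm8a1 to Timm8b from −0.57 to 0.33 (0.16 without control replicate 3). The causes of these changes were not tested. No paired analysis was possible because the groups share only replicate number 1.

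Precision was limited by 2 libraries a group. The 2 controls differed more than 2-fold in 2 of the 37 genes and in 13.8% of all tested genes.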
